A study of Homo sapiens with 4 samples.

Results

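Transcripts annotated for nonsense-mediated decay were followed across 4 RNA libraries of U87 cells, an established human glioblastoma line. The members are the rows of the deposited transcript table whose identifier carries the biotype nonsense_mediated_decay in GENCODE v29, with the genes named SRSF, TRA2A and TRA2B left out. There were 8114 such rows among 100809, from 4639 genes, and a further 23 rows belonged to the genes left out. The cells had received, for 48 h before Trizol lysis, 50 nM of an oligonucleotide carried by Lipofectamine 2000. In 2 libraries (mimic 1 and mimic 2) it mimicked tRF-3009a, a fragment of a transfer RNA, and in the other 2 (control 1 and control 2) it was a single-stranded GL2 oligonucleotide against firefly luciferase. All 4 libraries thus share the line, the transfection and the dose, and no untransfected library is among them. The labels number the libraries 1 and 2 within each group without saying what the number stands for, and nothing in them says that libraries came from separate cultures. Adjusted p-values therefore measure differences only against the spread between these libraries, which may be technical.

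Nonsense-mediated decay is a translation-linked surveillance pathway of the cytoplasm. A ribosome that stops well upstream of an exon junction leaves a junction complex on the RNA, the helicase UPF1 is recruited and phosphorylated by SMG1, and factors such as SMG5 and the nuclease SMG6 lead the RNA to cleavage or decapping. Many RNA-binding proteins and ribosomal proteins limit their own level by splicing part of their transcripts into such a form, and several RNAs of the stress response are natural substrates. The biotype is a prediction from the position of the annotated stop codon. It does not say that a transcript was degraded in these cells, and a steady-state level in bulk RNA cannot separate splicing from decay, nor fewer cells from less RNA per cell.

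The annotated structure of the members followed that definition. Of the 8104 with an annotated stop codon, 99.3% had their last exon junction at least 50 bases after it, against 0.98% of protein-coding rows. The median distance from stop to last junction was 369 bases, with a median of 3 junctions after the stop. Reading frames were short, with a median of 306 coding bases against 1173 in protein-coding rows. In 1970 members (24.3%) the annotation marks the start as not found, so these frames may be incomplete. Protein-coding rows were not counted for this mark. The stop codon TGA closed 58.7% of member frames and 49.7% of protein-coding ones. In 4139 members the stop lay in bases that a coding transcript of the gene also has, but in another frame or place. In 2956 it lay in exon bases of no coding transcript of the gene. In 824 it was also the stop of at least 1 coding transcript, as a rule with an exon junction further downstream. The remaining 195 could not be sorted.

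The form whose stop lies in bases of no coding transcript is shown for members that the results below turn on, read from the GENCODE v29 transcript sequences (GRCh38). Each pair starts with 15 bases shared by the member and the leading coding transcript of the gene, 5′ to 3′ on the RNA's own strand. The member then runs on to its stop codon, in capitals, and the coding transcript for 30 bases. SETD2-201 (ENST00000330022.11, minus strand) runs into chr3:47119753-47119780, exon bases of no coding transcript, and stops after 28 of them. SNRNP70-202 (ENST00000401730.5, plus strand) does so at chr19:49102114-49102139 after 26 bases. MAGOHB-208 (ENST00000544850.5, minus strand) stops after the 9 bases of chr12:10609375-10609383. HMGA2-207 (ENST00000537275.5, plus strand) stops after the 63 bases of chr12:65842134-65842196, and SDAD1-202 (ENST00000395710.5, minus strand) after the 24 bases of chr4:75981522-75981545.
SETD2-201: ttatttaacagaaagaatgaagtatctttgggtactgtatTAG
SETD2-202, coding: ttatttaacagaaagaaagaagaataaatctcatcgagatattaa
SNRNP70-202: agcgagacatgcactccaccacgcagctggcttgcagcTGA
SNRNP70-206, coding: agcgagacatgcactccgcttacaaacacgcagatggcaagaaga
MAGOHB-208: agggttggccgacagaataaaTGA
MAGOHB-204, coding: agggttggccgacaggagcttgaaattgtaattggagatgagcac
HMGA2-207: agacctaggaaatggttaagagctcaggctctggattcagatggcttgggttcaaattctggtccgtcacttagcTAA
HMGA2-204, coding: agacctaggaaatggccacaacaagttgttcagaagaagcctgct
SDAD1-202: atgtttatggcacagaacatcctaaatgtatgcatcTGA
SDAD1-201, coding: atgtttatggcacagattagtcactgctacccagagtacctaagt

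Another form has the same stop as a coding transcript of the gene, which need not be the leading one. The last 45 bases of the frame are given for CIRBP-210 (ENST00000586636.5, chromosome 19, plus strand) and HNRNPDL-202 (ENST00000349655.8, chromosome 4, minus strand). In CIRBP-210 the last junction lay 129 bases after this stop, and in HNRNPDL-202 it lay 127 bases after it.
CIRBP-210: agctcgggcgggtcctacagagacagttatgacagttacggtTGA
HNRNPDL-202: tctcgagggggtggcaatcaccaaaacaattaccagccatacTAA

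Most members were scarce. Over the 4 libraries the median of their mean normalized values was 15.6, against 45.8 for protein-coding rows, and 3108 members were listed at 0 in at least 1 library. A mean of at least 10, the minimum for a test, was reached by 4973 members, and 3141 fell below it. For 4804 of the 4973 the gene also had protein-coding rows with a mean sum of at least 10, so that a ratio of the member to those rows could be formed. No exon base of its own, apart from those in coding transcripts of the gene, was present in 34.3% of members. For these the estimate rests on splice junctions and on how reads were divided among transcripts. Of the members named below, HNRNPDL-202, HNRNPA2B1-203, RPLP0-214, RPL13A-214, FTH1-210, TRIT1-205 and ADAM17-207 are among them.

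Recovered reads came to between 28866348 and 33831124 per library. The U87 identity genes VIM, CD44, NES and FN1 summed to 400000 in control 1 and 364000 in mimic 1, but to 195000 in control 2 and 185000 in mimic 2. CDKN2A and MTAP, which U87 cells have lost, summed to between 31.5 and 52.7. Of the marker lists for other cell types, the epithelial one (3 of 3 genes with rows) summed to 72.8 and 72.9 in the libraries numbered 1 and to 239 and 215 in those numbered 2. That rise lay in ESRP1, an epithelial splicing regulator, at 13.5 and 3.6 against 201 and 173, while EPCAM went from 45.7 and 41.4 to 16.8 and 11.4. The endothelial list (3 of 3) summed to 51.9 and 68.3 against 25.8 and 27.7, the immune list (2 of 3, no row for AIF1) to between 7240 and 10200, and the neuronal list (2 of 3, no row for RBFOX3) to between 1130 and 1290. Nearly all of the immune sum lay in CD68, at 7240 to 10200, while PTPRC lay between 2.86 and 6.72. Within the neuronal list SNAP25 went from 778 and 712 to 88.5 and 80.2, and SYT1 from 433 and 420 to 1160 and 1210. No defining marker with a row was listed at 0 in all 4 libraries. The mitochondrially encoded genes held 3.25% to 4.04% of each library. The identity, epithelial and endothelial sums and both neuronal genes moved with the library number, as did the results below, and their part in those results was not tested.

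The members held a small share of each library, and it was higher in the libraries numbered 2 in both groups. The share of the summed values was 2.25% and 2.5% for control 1 and control 2, and 2.32% and 2.57% for mimic 1 and mimic 2. The mimic libraries (2.45% ± 0.177, SD, n = 2) exceeded the controls (2.37% ± 0.181, SD, n = 2) by 0.0727 percentage points, with overlapping groups and an exact permutation p of 0.667, two-sided. The libraries numbered 2 exceeded those numbered 1 by 0.253 points without overlap, with an exact permutation p of 0.333, which is the smallest that 2 against 2 libraries can give. Within genes that have both member and protein-coding rows, members made up 5.87%, 6.77%, 6.04% and 6.95% of the sum in the same order of libraries. Other noncoding types did not share this order. Retained introns held 2.71% and 2.75% in the libraries numbered 1 and 2.61% and 2.68% in those numbered 2, and processed transcripts held between 1.73% and 1.83%. The share of members is a sum, so abundant rows weigh heavily in it. FTH1-210 went from 5470 and 4490 in the libraries numbered 1 (control, mimic) to 24500 and 24700 in those numbered 2. SOD2-214 went from 5082 and 6759 to 24527 and 17637. PDIA3-202 and HNRNPA1-205, also abundant, fell. The share without FTH1-210 and SOD2-214 was not computed, so a general rise of members cannot be read from it.

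**Figure D1:**
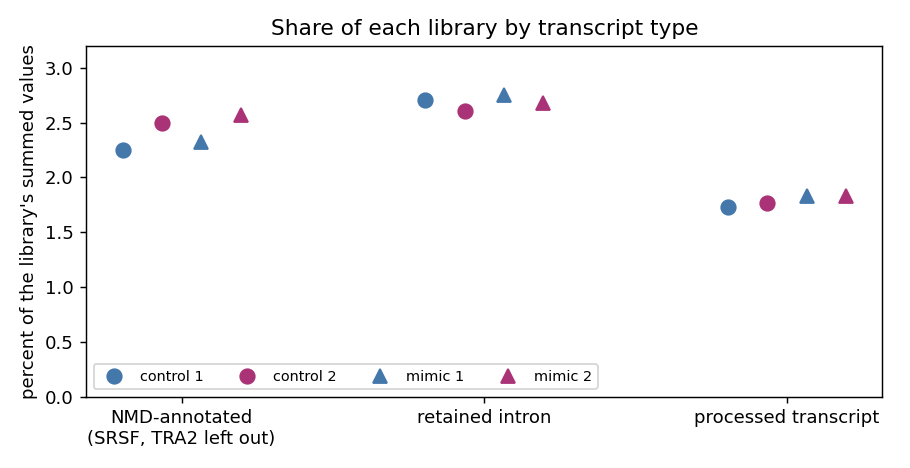
Share of each library's summed normalized values, in percent, by transcript type. Circles are controls, triangles mimic libraries, blue is number 1 and purple number 2. The NMD-annotated share was 2.25% and 2.32% in the libraries numbered 1 and 2.5% and 2.57% in those numbered 2.

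A few members were abundant. On the scale of normalized value per kilobase of transcript, averaged over the 4 libraries, the highest was B2M-212 at 18300, followed by B2M-201 and FTH1-210 at 15000 each. B2M encodes the light chain of MHC class I, and FTH1 encodes the heavy chain of the iron store ferritin. FTH1-210 stood at 5570 and 4570 per kilobase in the libraries numbered 1 and at 24900 and 25100 in those numbered 2, so its place in the order differed between them. PDIA3-202, from the gene of an endoplasmic reticulum disulfide isomerase, followed at 5920 and ranged from 4910 to 6880. CTSB-222, from the gene of the lysosomal protease cathepsin B, averaged 5000 and ranged from 4630 to 5290, which overlaps the range of PDIA3-202. HNRNPA1-205, RPS3-218, CD63-209, SOD2-214 and PDAP1-202 averaged between 3040 and 4230, and their ranges over the libraries overlapped. FTH1, HNRNPA1, RPS3, RPLP0, RPL13A and other ribosomal protein genes have near-identical copies elsewhere in the genome. Their values are uncertain where reads could be split among copies.

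In some genes the member, not the coding rows, held most of the signal. The shares here are of normalized values not divided by transcript length, so they are not shares of molecules. Among 3865 genes with members and a mean sum of at least 200, members took a median of 3.25% of the gene's sum, with quartiles of 0.886% and 11%. They took over 20% in 577 genes and over 50% in 126. In 13 genes they took 100%, there being no coding row. Among these were loci with clone-based names such as AC106886.5, whose single row ranged from 1208 to 1544, the gene THSD8, and the readthrough locus HNRNPUL2-BSCL2, which had the highest mean sum of the 13 at 3278. Among well-known genes, SOD2-214 held 79.9%, 86.2%, 82.8% and 83.8% of the sum of itself and the coding rows (control 1, control 2, mimic 1, mimic 2). SOD2 encodes the mitochondrial superoxide dismutase. For PDIA3-202 the same share was between 79.6% and 84.5%, and for B2M-201 between 46.3% and 60.7%.

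The mimic was first compared with the control for each member. By limma no member passed, in the transcript values (0 of 4973; 0% of all 63708 rows) or in the ratio to coding rows (0 of 4804; 0% of all 50003 rows). Unadjusted p fell under 0.05 for 114 members in the values and 136 in the ratio, against 1032 and 1344 of all rows. edgeR's quasi-likelihood test on recovered whole reads also called 0 members, with 110 at an unadjusted p under 0.05. The median log2 difference of members was -0.01 in the values and 0.02 in the ratio, beside -0.01 and 0.01 for all rows. The ratio was higher in both mimic libraries than in both controls for 14.3% of members (13.5% of all rows) and lower for 13.1% (12.8% of all rows). A change of over 2-fold within both numbers was upwards for 181 members (3.77%; 3.2% of all rows) and downwards for 182 (3.79%; 2.87% of all rows).

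Other tests on recovered reads made a few calls between mimic and control. DESeq2 called 13 members higher and 10 lower of 4973 (0.152% and 0.195% of all rows, 0.347% in all). edgeR's test of transcript usage within genes, added after the data were seen, called 2 members among 36 rows (0.0732% of 49180, with 0.0346% higher and 0.0386% lower). AKT2-240, named after its values were seen, comes from a kinase gene of insulin signalling. It was listed at 0 in both controls and stood at 115 in mimic 1 and 52.5 in mimic 2 (edgeR usage adjusted p = 0.0462, DESeq2 adjusted p = 0.00428). TSEN15-211, from the gene of a tRNA-splicing endonuclease subunit, stood at 99.8 and 187 in the controls and was listed at 0 in both mimic libraries (edgeR usage adjusted p = 0.049, DESeq2 adjusted p = 9e-05). Both rows have no exon base of their own.

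Since none passed in limma, members with the smallest limma p in each direction are described by their values. KCTD2-202, from the gene of an adapter of ubiquitin ligases, stood at 287 and 247 in the controls against 31.5 and 36.3 in the mimic libraries. The coding rows of KCTD2 summed to between 888 and 1003 without such a split. Its log2 difference was -2.94 ± 0.38 (SE), with a limma adjusted p of 1 and a DESeq2 adjusted p of 3.9e-05. TRIT1-205, from the gene of a tRNA isopentenyltransferase, stood at 115 and 139 in the controls and at 17.1 and 11.5 in the mimic libraries (limma adjusted p = 1, DESeq2 adjusted p = 0.00949). The coding sum of TRIT1 was 444 and 578 in the controls against 614 and 697 with the mimic, in the other direction and without overlap. In the other direction, CD63-209, from the gene of a tetraspanin of late endosomes, was at 2257 and 2055 in the controls and at 4039 and 3403 in the mimic libraries, while the coding sum of CD63 ran from 35270 to 44394 with overlap. Its limma and DESeq2 adjusted p-values were 1 and 0.808. ABCC4-212 and ADAM17-207 were listed at 0 in both controls and stood at 168 and 85.1, and at 78.2 and 155, in mimic 1 and mimic 2 (DESeq2 adjusted p = 0.000365 and 0.000575). ABCC4 encodes an efflux pump and ADAM17 a sheddase.

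The libraries numbered 2 were then compared with those numbered 1, across both groups. In the transcript values limma called 145 members higher and 71 lower in number 2 among 4973. That is 2.92% and 1.43% of members, beside 4.21% and 3.6% of all 63708 rows (7.81% in all), so a smaller share of members than of rows in general was called in either direction. With a mean of at least 50, the shares were 8.65% and 5.85% of members and 11.4% and 10.2% of all rows (21.6% in all). The balance of calls leaned upwards, with 67.1% of called members higher against 53.9% of all called rows. At a mean of at least 50 those shares were 59.7% and 52.7%. The median log2 difference was 0.17 for members, 0.01 for protein-coding rows, -0.10 for retained introns and 0.02 for processed transcripts. The limma calls did not persist with any 1 library left out, among members or among all rows. Such fits leave a single library in 1 group. The median log2 difference then ran from 0.114 to 0.2433 for members and from -0.0161 to 0.0372 for all rows. With treatment as a term limma called 51 members (2.6% of all rows, 1.4% higher and 1.2% lower) and edgeR 0 (790 at an unadjusted p under 0.05). Without that term edgeR called 151, 95 higher and 56 lower (6.06% of all rows, 3.14% higher and 2.91% lower).

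Part of this movement was shared with the gene. Of the 145 members called higher, from 126 genes, 104 had a coding sum that was also higher in both libraries numbered 2. For 15 the coding sum was lower in both, for 24 it overlapped, and 2 had no coding row. Of the 71 called lower, 53 had a lower coding sum and 7 a higher one. The same counts were not made over all tested members. By another measure, limma called 26% of all 16535 gene sums higher and 24.2% lower in number 2. The 145 included 19 rows listed at 0 in both libraries numbered 1, and the 71 included 9 listed at 0 in both numbered 2. Only 1 gene had members called in both directions.

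The ratio to the gene's coding rows sets this movement aside. Its median log2 difference between numbers was 0.16 for members, with 0.13 within the controls and 0.21 within the mimic pair. The corresponding medians were 0.00 for protein-coding rows, -0.10 for retained introns and -0.03 for processed transcripts. Values in both libraries numbered 2 exceeded those in both numbered 1 for 1381 of 4804 members (28.7%; 23.6% of all rows) and fell below them for 802 (16.7%; 23.9% of all rows). A change of over 2-fold in the same direction in both groups was upwards for 473 members (9.85%; 6.52% of all rows) and downwards for 243 (5.06%; 6.52% of all rows). No single ratio passed in limma (0 of 4804 members, smallest adjusted p = 0.111; 580 members at an unadjusted p under 0.05, against 6297 of 50003 rows). edgeR's usage test called 32 members higher and 20 lower among 4620, or 0.693% and 0.433%, beside 0.577% and 0.516% of all rows (1.09% in all).

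**Figure D2:**
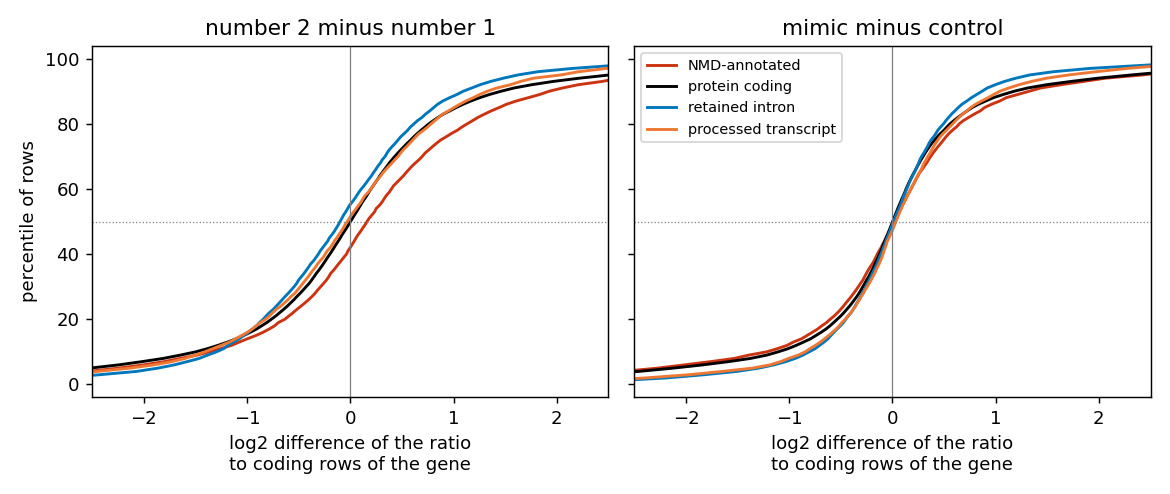
Distribution of the log2 difference of the ratio to coding rows of the gene (horizontal axis) as percentiles of rows (vertical axis), by transcript type, for number 2 minus number 1 (left) and mimic minus control (right). Between numbers the NMD-annotated curve lies to the right of the others from the 25th to the 90th percentile, with a median of 0.16, and crosses some of them in the tails. It lies near them between mimic and control in the middle of the distribution, with a median of 0.02.

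The upward shift of the ratio was present across most kinds of member. By the place of the stop, the median was 0.16 for stops in shared bases and 0.16 for stops in bases of no coding transcript. It was 0.19 for stops that a coding transcript also has. By stop codon it was 0.14 for TAA, 0.17 for TAG and 0.17 for TGA. It ranged from 0.15 to 0.18 over classes of 1, 2 to 3, 4 to 7 and 8 or more junctions after the stop. The 25 members whose last junction lay under 50 bases after the stop, or before it, had a median of -0.33. Members with 300 or more exon bases of their own had a median of 0.02 (n = 831), and those with 100 or more but under 300 had 0.21 (n = 1102). By GC content of the transcript the median ranged from 0.11 under 42% to 0.21 between 48% and 55%, and a correction of each library for GC content left the median of all members at 0.15. Members that made up 20 to 50 percent of their own and the coding sum had a median of 0.07, those above 50 percent 0.15 (n = 192), those of 5 to 20 percent 0.17 and those under 5 percent 0.21. These medians describe the classes, and differences among them were not tested.

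**Figure D3:**
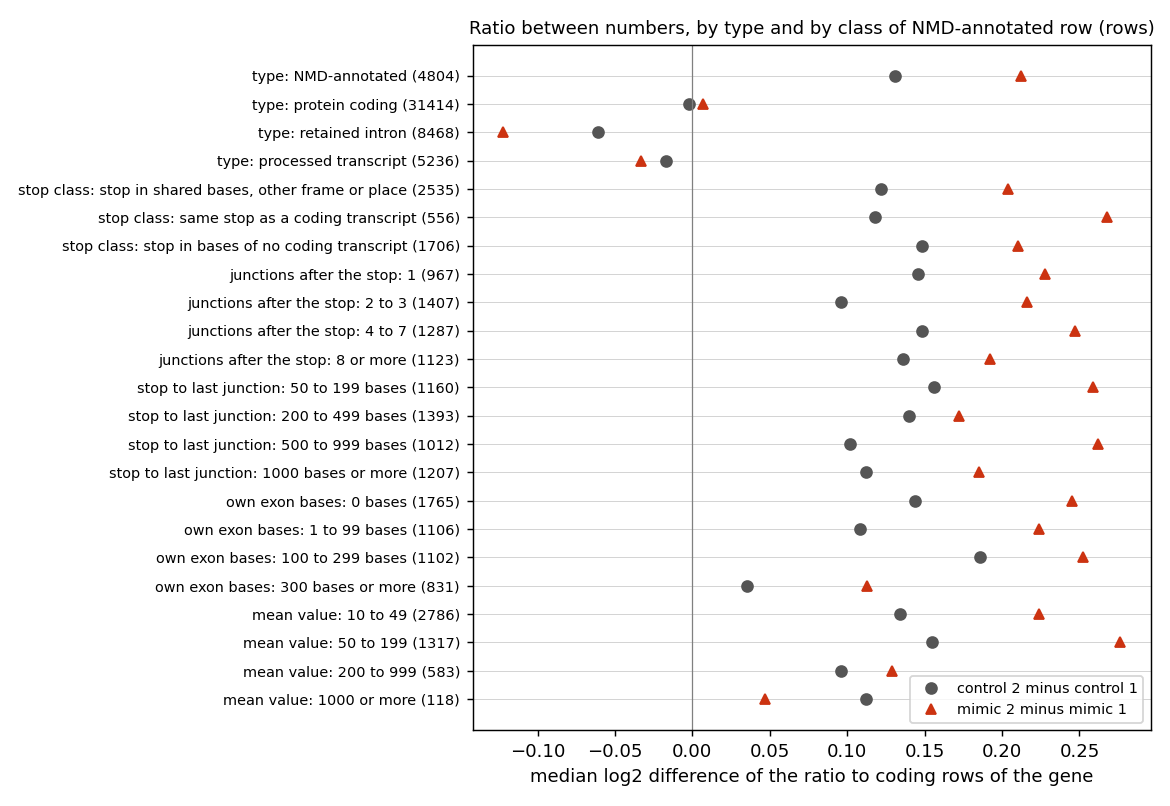
Median log2 difference of the ratio to coding rows between numbers, by transcript type and by class of NMD-annotated row, with the number of rows in brackets, for the controls (grey circles) and the mimic libraries (red triangles). All plotted classes of NMD-annotated row (100 rows or more) lie above 0 in both groups, and retained introns lie below 0.

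Genes of splicing factors and RNA-binding proteins had 100 member rows in 40 of the 56 genes listed, and 74 of these rows could be tested. By limma 7 of the 74 rose and 2 fell (4.21% and 3.6% of all rows), and the median of the ratio was -0.06, with -0.23 within the controls and 0.11 within the mimic pair. CIRBP-210, from the gene of a cold-inducible RNA-binding protein, stood at 18.7 and 24.3 in the libraries numbered 1 (control, mimic) but at 874 and 873 in those numbered 2. It lies at chr19:1269347-1274880. Its coding rows summed to 3020 and 3214 in the libraries numbered 1 and to 4976 and 5131 in those numbered 2, so that the member went from 0.616% and 0.751% of the combined sum to 14.9% and 14.5%. The log2 difference was 5.29 ± 0.23 (SE; limma adjusted p = 0.0063), and that of the ratio was 4.59 ± 0.27 (limma adjusted p = 0.121, edgeR usage adjusted p = 0.000243).

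HNRNPDL-202 rose while the coding rows of its gene went the other way. HNRNPDL encodes an hnRNP-like regulator of splicing, and the member lies at chr4:82424629-82429447. It has no exon base of its own, so its values rest on splice junctions and on how reads were divided among transcripts. The member stood at 174 and 252 in the libraries numbered 1, and at 2951 and 3100 in those numbered 2. The coding sum was 10603 and 12055 in the libraries numbered 1 and 5446 and 5262 in those numbered 2. The share of the member was thus 1.61% and 2.05% against 35.1% and 37.1%, with a ratio difference of 4.93 ± 0.24 (SE; limma adjusted p = 0.111, edgeR usage adjusted p = 3.62e-06). SNRNP70-202, from the gene of the U1-70K protein that helps U1 snRNP to hold the 5′ splice site, behaved alike. It stood at 177 and 162 in the libraries numbered 1 and at 382 and 349 in those numbered 2 (chr19:49085451-49108603). Its coding sum was 3076 and 2904 against 1264 and 1083, with a ratio difference of 2.46 ± 0.24 (SE; limma adjusted p = 0.209, edgeR usage adjusted p = 0.0291). The groups of numbers did not overlap in the member or in the coding sum for either gene. Other member rows of these genes fell. HNRNPDL-203 stood at 311 and 188 in the libraries numbered 1 and at 143 and 128 in those numbered 2. HNRNPDL-209 went from 157 and 117 to 0 and 24.8, and SNRNP70-209 from 106 and 91.8 to 49.3 and 51.5. Limma called none of these (adjusted p = 0.188, 0.171 and 0.105). HNRNPDL-205 and SNRNP70-204 overlapped between numbers.

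Other abundant hnRNP members varied. HNRNPA2B1-203, named after its values were seen, was at 1640 and 1750 in the libraries numbered 1 and at 2160 and 2010 in those numbered 2, which did not overlap (limma adjusted p = 0.142). The coding sum of HNRNPA2B1, an hnRNP core protein gene, was 27900 and 33000 against 15700 and 16400, with a ratio difference of 1.22 (edgeR usage adjusted p = 0.004). HNRNPA1-205 fell from 6067 and 7207 in the libraries numbered 1 to 3675 and 3907 in those numbered 2 (log2 difference -0.80 ± 0.11, SE; limma adjusted p = 0.0304). Its coding sum went from 24049 and 26070 to 11577 and 11679, and the share of the member was 20.1% and 21.7% against 24.1% and 25.1% (ratio, limma adjusted p = 0.516). The other calls in this list, named after their values were seen, were RBM39-206, RBM39-216, ACIN1-206 and QKI-204 upwards and HNRNPUL1-208 downwards. RBM39-206 stood at 679 and 733 in the libraries numbered 1 and at 2860 and 3150 in those numbered 2 (limma adjusted p = 0.00819), and the coding sum of RBM39, a splicing coactivator, overlapped between them.

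Among 41 tested member rows of cytosolic ribosomal protein genes, limma called 3 higher and 0 lower (4.21% and 3.6% of all rows), and the median ratio difference of the 40 with a ratio was 0.27. RPLP0-214, from the gene of a ribosomal stalk protein, stood at 484 and 438 in the libraries numbered 1 and at 1963 and 2479 in those numbered 2. The coding sum of RPLP0 was 60077 and 53975 against 70179 and 71124, which put the member at 0.799% and 0.806% and at 2.72% and 3.37%. Its log2 difference was 2.26 ± 0.16 (SE; limma adjusted p = 0.0113; edgeR usage adjusted p for the share = 0.00231). RPL13A-214, a member of the gene of a large-subunit protein, stood at 77 and 75.6 in the libraries numbered 1 and at 368 and 479 in those numbered 2 (limma adjusted p = 0.016, edgeR usage adjusted p = 0.0368). By contrast RPS3-218, the most abundant ribosomal member per kilobase, stood at 2506 and 2877 against 2906 and 2908, without overlap but close together (limma adjusted p = 0.508).

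Several of the members with the highest level per kilobase were called between numbers. In FTH1-210 the values were 5474 and 4490 in the libraries numbered 1 against 24476 and 24691 in those numbered 2 (log2 difference 2.31 ± 0.11, SE; limma adjusted p = 0.00759). The coding rows of FTH1 rose too, from 126018 and 107621 to 247892 and 233317, and the member's share went from 4.16% and 4% to 8.99% and 9.57% (edgeR usage adjusted p = 0.0184). SOD2-214 stood at 5082 and 6759 in the libraries numbered 1 and at 24527 and 17637 in those numbered 2 (limma adjusted p = 0.0257), while its share of the combined sum differed little, at 79.9% and 82.8% against 86.2% and 83.8% (ratio, limma adjusted p = 0.501). B2M-201 went from 8795 and 8666 to 13671 and 12927 (limma adjusted p = 0.0157), while the coding sum of B2M, between 8363 and 10045, overlapped between numbers. PDIA3-202 fell from 13905 and 14503 to 11141 and 10350 (limma adjusted p = 0.0369), at a share of 80.2% and 84.5% against 79.6% and 80.1% (ratio, limma adjusted p = 0.643).

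Genes of the integrated stress response and of amino acid supply had 30 tested members, of which limma called 9 higher and 0 lower (4.21% and 3.6% of all rows, 2.92% and 1.43% of all members). The median of the log2 difference was 3.02 in the values and 1.39 in the ratio (29 members), where 24 of 29 were positive, with medians of 1.15 within the controls and 1.29 within the mimic pair. Several members came from 1 gene, with 7 from SHMT2, 5 from PHGDH and 5 from TARS, so these rows do not vary separately. SHMT2-229, from the gene of the mitochondrial serine hydroxymethyltransferase, was at 35.3 and 25.2 in the libraries numbered 1 and at 364 and 262 in those numbered 2 (limma adjusted p = 0.0177). The coding sum of SHMT2 was 4003 and 3486 against 8744 and 9813. MTHFD2-205, named after its values were seen, shows the other case. It stood at 978 and 1140 against 4960 and 5060 (limma adjusted p = 0.00766), with a ratio difference of -0.14, so it moved with the coding rows of its gene. MTHFD2 encodes a mitochondrial folate enzyme.

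Further single members rose in genes outside these lists. SETD2-201, a member of the gene of a histone H3 lysine methyltransferase, was listed at 0 in control 1 and mimic 1 and stood at 159 and 198.9 in control 2 and mimic 2 (chr3:47016436-47124250). The coding sum of SETD2 was 1828 and 1648 in the libraries numbered 1 and 1678 and 1549 in those numbered 2, and the edgeR usage adjusted p was 3.37e-05. SDAD1-202, from a gene for ribosome assembly, was at 162 in both libraries numbered 1 and at 807 and 1062 in those numbered 2 (chr4:75949906-75990938). The share of this member was 6.54% and 5.93% against 25% and 32.9%, with a log2 difference in the values of 2.51 ± 0.19 (SE; limma adjusted p = 0.013). MED15-211, from the gene of a Mediator subunit, stood at 42.6 and 29.7 against 180 and 200 (limma adjusted p = 0.0262), with a coding sum of 2924 and 2303 against 1993 and 1899. RACK1-210, from the gene of a ribosome-bound scaffold protein, was at 58.3 and 15.3 against 596 and 766 (limma adjusted p = 0.0381, edgeR usage adjusted p = 0.000109).

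Members also fell. HMGA2-207 lies at chr12:65824460-65842917 in the gene of an architectural chromatin protein. It stood at 425 and 454 in the libraries numbered 1 and at 26.9 and 42 in those numbered 2 (log2 difference -3.67 ± 0.29, SE; limma adjusted p = 0.0139). The coding sum of HMGA2, between 14605 and 15420, overlapped between numbers, and the edgeR usage adjusted p was 5e-06. SLTM-208, from the gene of a SAFB-like RNA-binding protein, was at 207 and 183 in the libraries numbered 1 and was listed at 0 in both numbered 2 (edgeR usage adjusted p = 2.39e-09). In the same gene SLTM-212, named after its values were seen, stood at 28.1 and 47.7 against 369 and 358 (edgeR usage adjusted p = 0.00231). Neither of these rows has an exon base of its own. MBOAT7-206, from the gene of a lysophospholipid acyltransferase, went from 287 and 229 to 47.1 and 49.6 (limma adjusted p = 0.0191). COA1-206, from a gene for assembly of respiratory complexes, went from 102 and 106 to 7.85 and 10.5 (limma adjusted p = 0.0211), and its annotated model has no junction after the stop. POLA2-204, from the gene of a subunit of DNA polymerase alpha, went from 186 and 112 to 22.4 and 17.2 (limma adjusted p = 0.0317), with a coding sum that went from 915 and 934 to 126 and 161.

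Of 15 tested members of cell cycle, replication and repair genes limma called 0 between numbers (7.81% of all rows). Their median was -0.87 in the values and 0.23 in the ratio, where 9 of 15 were positive, with 1.16 within the controls and 0.26 within the mimic pair.

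**Figure D4:**
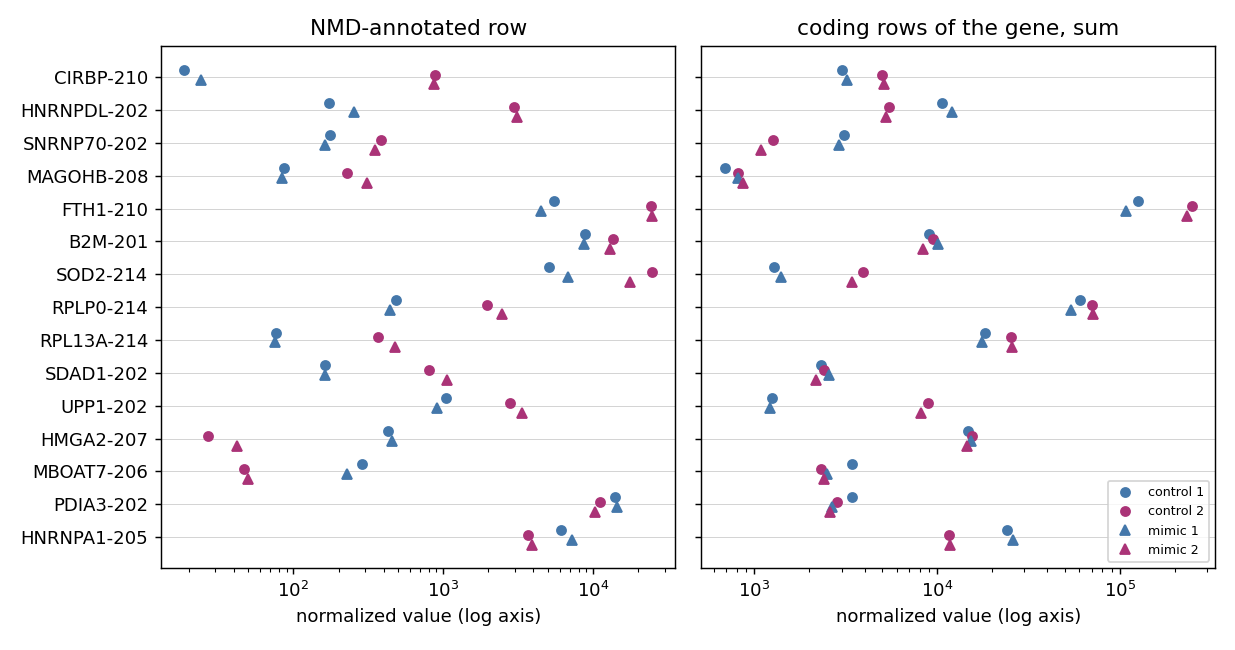
Normalized values on a log axis of 15 named members (left) and the sum of the coding rows of the same gene (right) in each library. Circles are controls, triangles mimic libraries, blue is number 1 and purple number 2. Libraries of the same number lie together for CIRBP-210 (18.7 and 24.3 against 874 and 873), while the coding sum of HMGA2 overlaps between numbers.

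The genes of the decay machinery were read at the level of summed rows. Between mimic and control limma called 0 of 28 (0% of 16535 genes), with a median log2 difference of 0.00 and a range of -0.30 to 0.19. With the replicate number as a block limma again called 0 of the 28, beside 117 of the 16535 genes (55 higher and 62 lower). Between numbers limma called 15 higher and 4 lower in number 2, with a median of 0.28, beside 26% and 24.2% of all genes called higher and lower (50.2% in all). SMG9, a subunit of the SMG1 kinase complex, was at 1150 and 837 in the libraries numbered 1 against 2150 and 1960 in those numbered 2 (log2 difference 1.06 ± 0.14, SE; limma adjusted p = 0.000263). UPF3B, which links UPF2 to the junction complex, was at 718 and 868 against 1430 and 1490 (limma adjusted p = 0.000191). UPF1 stood at 2840 and 2570 against 3820 and 3420 (limma adjusted p = 0.0043). RUVBL2, an ATPase of the pathway's kinase assembly, fell from 2170 and 2150 to 992 and 964 (limma adjusted p = 7.95e-06), and RBM8A and RNPS1, which sit at the exon junction, fell as well. UPF2 was the remaining gene called lower, with a log2 difference of -0.26 ± 0.09 (SE; limma adjusted p = 0.0404). With control 2 left out fewer of the 28 were called, as was the case for all genes. Their median log2 difference was then 0.23, beside 0.01 for all genes.

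**Figure D5:**
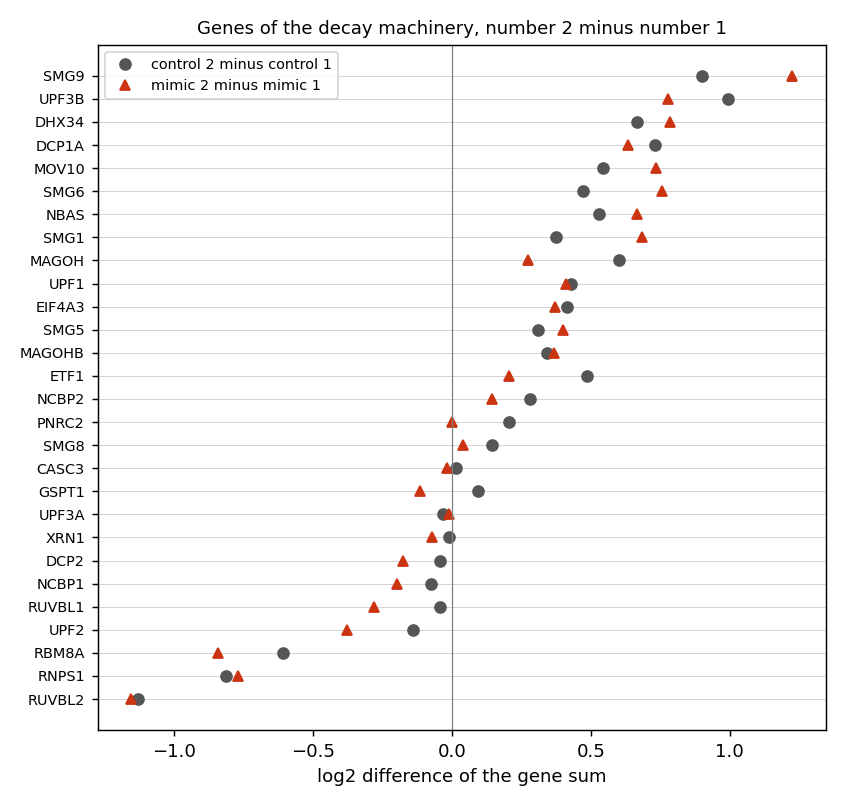
Log2 difference of the summed rows between numbers for 28 genes of the decay machinery, in the controls (grey circles) and in the mimic libraries (red triangles). SMG9 has the highest fitted value (1.06) and RUVBL2 the lowest (-1.14).

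Members within the machinery's own genes were few. Of 17 such rows in 12 genes 8 could be tested. Limma called 1, MAGOHB-208, higher in number 2 and 0 lower (4.21% and 3.6% of all rows). MAGOHB encodes a core protein of the exon junction complex, and the row lies at chr12:10606013-10613594. It stood at 86.4 and 83.7 in the libraries numbered 1 and at 228 and 311 in those numbered 2 (log2 difference 1.63 ± 0.24, SE; limma adjusted p = 0.0363), with a coding sum of 686 and 817 against 816 and 871. The share of the member was 11.2% and 9.30% against 21.8% and 26.3%, and the edgeR usage adjusted p was 0.72. Values of the other 7 rows lay between 5.70 and 338 and limma did not call them, among them RUVBL2-208 at 22.9 and 7.20 against 39.2 and 70.6 (limma adjusted p = 0.181).

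Of 14 genes whose RNAs are known as natural substrates of the pathway, limma called 11 higher and 0 lower between numbers (26% and 24.2% of all genes), with a median log2 difference of 1.91. Between mimic and control limma called 0. BAG1, GADD45B and SNHG12 were not called, and SNHG12 stood at 845 and 810 against 721 and 645 (limma adjusted p = 0.0537). ATF3, a stress-induced transcription factor, was at 736 and 654 in the libraries numbered 1 and at 10400 and 11500 in those numbered 2 (limma adjusted p = 2.77e-08). GAS5, a noncoding host of small nucleolar RNAs, was at 2020 and 2100 against 8770 and 9540 (limma adjusted p = 1.89e-07). ATF4, ATF3 and DDIT3 of this list also belong to the stress response list. Only 5 of the 14 genes have rows of the decay biotype. Of their 9 tested rows limma called 3 higher and 0 lower (4.21% and 3.6% of all rows). All 3 lay in UPP1, the gene of uridine phosphorylase. UPP1-202 stood at 1040 and 913 against 2806 and 3368 (limma adjusted p = 0.0144), while the coding sum of UPP1 went from 1242 and 1209 to 8905 and 8128. The share of this member was thus lower in number 2, at 24.0% and 29.3% against 45.6% and 43.0%, with a ratio difference of -1.14 ± 0.23 (SE; limma adjusted p = 0.283).

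Ratios with a denominator near 0 need their values beside them. For HIST2H4B-202 the coding rows were listed at 0 in control 2 and mimic 2, where the member stood at 133 and 220, so no fold is given for the ratio. For TIMM23B-203 the coding rows were listed at 0 in control 1 and mimic 1 and stood at 30.3 and 32.2 in the other libraries, while the member went from 594 and 585 to 1077 and 1171 (limma adjusted p = 0.0263). Both genes have near-identical copies, so these values are uncertain.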

How the data were processed

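RNA of 4 libraries was poly(A)-selected and sequenced as pairs from directional libraries (source: the labels' protocols). Per the submitters' processing notes, kallisto, DESeq2 and hg38 were used, without versions. The deposited values are a signal per transcript. Of their low values, 95% to 99.7% were whole multiples of a fixed step in each library (tolerance 0.1), as for read counts scaled by library. Higher values were not checked in this way. Division by the step and rounding gave the whole numbers that are here called recovered reads. They are estimates where reads were divided among transcripts. The lowest sum of a row was 10 reads. No column outside the series was present (0).

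Rows were matched to GENCODE v29 by identifier without version (90643 of 100809, 89.9%); 8048 of 8114 members had the same version. Tests used limma-trend on the log2(value + 1) scale, over rows whose mean reached 10, two-sided, adjusted by Benjamini-Hochberg over all rows at a threshold of 0.05; fold changes on this scale understate those of low rows. The ratio was log2(row + 1) minus log2(sum of the other protein-coding rows of the gene + 1), for rows whose gene had such a sum with a mean of at least 10. The study's groups and the numbers came from the labels. Alternatives were other pseudocounts, filters, scalings and denominators, edgeR, DESeq2, a replicate block and each library left out. edgeR's usage test, a treatment term in edgeR and a GC correction before the ratio were added after the data were seen. The limma fit was tested on simulated data with a single dispersion and no difference between numbers. That setting differs from these libraries, so it does not show how many changes the fit would miss here. Sequences and positions came from the annotation and were not taken from reads.

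The members and lists were chosen with earlier results of these data known. Named members were, per direction, the 12 largest changes past the test between numbers and 6 between treatments (mean of at least 50, groups not overlapping, filled up by p), the 10 highest per kilobase, 10 genes with the highest share (13 tied at 100%), 2 per list and all tested members of the machinery's genes; some are not described, and 1 gene of the machinery is not reported here. Versions were R 4.3.3, edgeR 4.0.16, limma 3.58.1, DESeq2 1.42.0, Python 3.11.15, scipy 1.17.1, pandas 2.3.3, numpy 2.4.6 and, for figures, matplotlib 3.10.9.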

Additional observations from a re-analysis of the deposited data

Results flagged for a closer look

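The median ratio of members to coding rows moved in opposite directions with the mimic in the 2 pairs of libraries of the same number. It was -0.022 (log2) between mimic 1 and control 1 and 0.064 between mimic 2 and control 2, over 4804 members. This difference was not tested, and each value rests on 1 library per group.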

How the results depend on the processing

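Of the results over all members, the count of transcripts called between numbers moved most with the processing. Limma called 216 of 4973 members, beside 4974 of all 63708 rows. The 216 became 51 with treatment as a term (1655 of all rows) and 814 with DESeq2 (14393 of all rows). They became 151 with edgeR (3859 of all rows) and 0 with edgeR and treatment as a term (0 of all rows). With any 1 library left out, the median log2 difference of members in the values ran from 0.114 to 0.2433. Between mimic and control DESeq2 called 23 members and the usage test 2, and between numbers the usage test called 52, where limma called 0. The difference in library share between numbers, 0.253 points, was 0.4191 per kilobase, 0.9072 within genes that have both kinds of row, and 0.2149 to 0.291 with 1 library left out. Called machinery genes between numbers ranged from 11 to 18 with 1 library left out. The cause was not tested, and the fits with a library left out also have fewer samples. The median ratio of members between numbers stayed between 0.1151 and 0.2518 under the alternatives run.

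With the replicate number as a block, limma called 0 members between mimic and control in the values and 0 in the ratio, and the share differed by 0.0761 within number 1 and 0.0694 within number 2. With 1 library left out, that share difference ran from -0.0554 to 0.2009. Only 2 pairs exist and the labels do not say what the numbers mark. The number differences of the controls and of the mimic libraries correlated across transcripts with Pearson's r = 0.311 (63708 rows, which are not independent).

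Some single ratios between numbers changed sign, or differed in sign from the usage test. That test sets a row against the tested rows of its gene, not against the coding rows alone. CASC3-205 (-0.018 in the main fit) was 0.014 at a pseudocount of 5 and 0.252 in the usage test. DHX34-202 (0.049) was -0.021 in the usage test, and NCBP1-203 (0.054) was -0.024 after GC correction. ESS2-202 (-2.089) was 0.236 and TIMM23B-203 (-4.081) was 0.027 in the usage test. The ratios of ESS2-202 and TIMM23B-203 kept their sign with 1 library left out, at -2.233 to -1.946 and -4.099 to -4.064. With 1 library left out, CASC3-205 ranged from -0.647 to 0.611, DHX34-202 from -0.347 to 0.445, NCBP1-203 from -0.22 to 0.327 and RBM8A-207 from -0.046 to 0.36. None of these was called. The 3141 members under a mean of 10 were left out by the filter. Without it limma called 182 of 8114 members between numbers, beside 3893 of all 100809 rows.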
